A study of Homo sapiens with 92 samples.

Results

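Newly made RNA of mitosis-released RPE-1 cells was compared after a long and a short label. The long label was 120 min of 4-thiouridine (4sU), given through the whole 120 min after release from mitosis, and the short label was 15 min of 4sU, given at the end of the same 120 min. The libraries were chosen by their titles, those of DMSO-treated cells from the mitosis series at 120 min, which gave 3 long-label and 4 short-label libraries, 7 of the 92 libraries of the series. The series asks what NIPBL, which loads cohesin on chromosomes, does when transcription restarts after mitosis. The 7 libraries came from cells given only the vehicle DMSO, and libraries with NIPBL degraded are used once, at the end.

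The cells were hTERT RPE-1, a human line from retinal pigment epithelium made immortal with telomerase, in 1 clone, NIPBL-D7, with the genotype mGreenLantern-P2A-FKBP12(F36V)-NIPBL. This allele adds a fluorescent protein and a degron that dTAGV-1 can target, and both groups carry it. Cells of both groups were synchronised by a double thymidine block, held for 120 min in nocodazole at 20 ng/ml together with DMSO, collected by mitotic shake-off and released into medium with DMSO for 120 min, with 4sU at 100 µM. Cells shaken off at 0 min, still arrested, with 15 min of 4sU (3 libraries) served as a level measured the same way in mitosis. A library without 4sU was not used here, so the share of converted reads that arises without any label is unknown. The labels do not say whether replicates were separate cultures, so each p-value measures only the spread between these libraries.

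In SLAM-seq, cells build 4sU into RNA as it is made, iodoacetamide alkylates the 4sU, and reverse transcription then reads it as C in place of T. Reads with such a conversion mark RNA made during the label, and a longer label gathers RNA that lives long enough to build up, while a short label is weighted to RNA being made at that moment. During mitosis most transcription stops, and it restarts as cells enter G1. For each gene the unit below is converted CPM, the library's converted reads scaled to 1e+06 after TMM adjustment, or the converted share, the percent of the gene's reads that carry a conversion. Converted CPM compares genes within the converted RNA and says nothing of how much of it there was.

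The converted share of a library was higher with the long label. It was 28.4, 27.6 and 23.5% in the long-label libraries, against 3.05, 3.90, 4.12 and 3.95% in the short-label libraries. The groups did not overlap, and the means were 26.5 ± 2.65% (SD, n = 3) and 3.75 ± 0.481% (SD, n = 4), a ratio of 7.06. The difference of 22.8 percentage points had p = 0.0286 in a two-sided exact permutation test, the smallest p that 3 against 4 libraries allow. Of the T positions read, 1.29 ± 0.165% were converted with the long label and 0.106 ± 0.0268% with the short label, with the same p from the same exact test. A converted read carried 2.22 ± 0.314 converted T positions on average with the long label and 1.31 ± 0.158 with the short label (exact permutation p = 0.0286).

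The short label stood little above the mitotic level. The share of converted reads with 15 min of 4sU was 2.77 ± 0.473% at 0 min (n = 3), 2.76 ± 0.140% at 30 min (n = 3), 3.95 ± 0.400% at 60 min (n = 4), 4.03 ± 0.812% at 90 min (n = 4) and 3.75 ± 0.481% at 120 min (n = 4). When each gene's share at 0 min was subtracted from its reads, 90.4, 90.2 and 88.5% of converted reads were left in the long-label libraries, against 15.8, 31.8, 23.5 and 33.2% in the short-label libraries. The larger part of each short-label library's converted reads thus lay within the share measured in arrested cells. The same share measured in the release series, whose DMSO-treated cells got DMSO only after shake-off, was 33.9 ± 4.77% for the long and 7.11 ± 0.865% for the short label (n = 3 each).

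**Figure D1:**
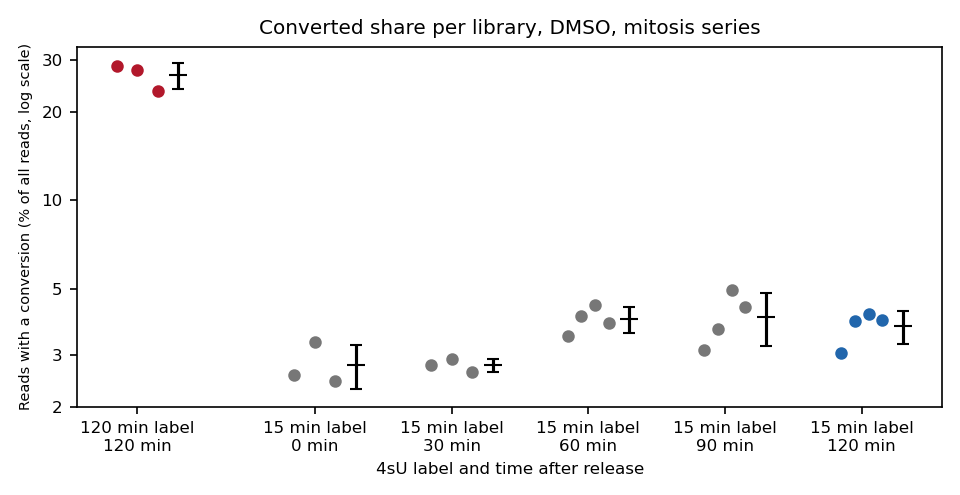
Converted share of each DMSO library of the mitosis series, as percent of all reads with a conversion on a log axis, by label and time after release. Points are libraries and bars are the mean and SD; the 3 long-label libraries sit between 23.5 and 28.4%, above each short-label library at any time.

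Total counts were 49.0 to 51.3 M reads in the long-label libraries and 15.6 to 52.1 M in the short-label libraries (M for 1e+06), of which 11.9 to 14.2 M and 0.644 to 2.03 M were converted. Short-label replicate 3 stood apart, with the 15.6 M reads. Its 10 top genes took 13.5% of converted reads, where those of the other short-label libraries took 3.45 to 3.75%, and it had 2.64% of all reads from the mitochondrial genome against 0.660 to 1.02%. Calls and values that moved by over 1.5 times without it are given both ways. In all reads few genes were called: of 19282 tested with edgeR's quasi-likelihood test at a Benjamini-Hochberg adjusted p under 0.05, none was higher and 1 was lower with the long label, 0.00519% of those tested. It was SHISA2, at 18.6, 14.9 and 14.0 all-read CPM with the long label and 70.6, 51.4, 57.3 and 59.4 with the short label (log2 difference -1.93 ± 0.18 (SE), adjusted p = 0.0198). At an unadjusted p under 0.05 there were 2794 genes, and DESeq2 called 458 higher and 517 lower. Without short-label replicate 3 edgeR called 213 higher and 212 lower of 18548, and the call of SHISA2 was lost without any one of the long-label libraries and without short-label replicate 1 or 4.

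Cell type markers matched the labelled line in part. Of 16 markers of the RPE-1 lineage, 8 were under 1 all-read CPM in all 7 libraries, among them the mature pigment epithelium genes RPE65, RLBP1 and BEST1, while KRT8, KRT18, CDH2, PAX6, MITF, OTX2, SIX3 and TERT were over 1 CPM in each library. Of 10 cardiomyocyte markers 8 were under 1 CPM in all 7 libraries. NKX2-5 was over 1 CPM in each library (1.03 to 6.32), and RYR2 ranged from 0.166 to 5.83. Of 10 neuron markers 4 were under 1 CPM in all 7 libraries, while SYT1, MAP2 and SNAP25 were over 1 CPM in each. RBFOX3, GAP43 and ELAVL4 passed 1 CPM in some libraries only. In bulk RNA, fewer cells of a type and less RNA per cell cannot be told apart.

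Of 11916 genes tested for converted CPM, 2175 were higher with the long label (18.3%) and 2624 were lower (22%), by edgeR's quasi-likelihood test at an adjusted p under 0.05. The median log2 difference over all genes was 0.05. The groups did not overlap in 2043 of the higher and 2443 of the lower genes, nor in 1109 of the 7117 genes not called. Without short-label replicate 3, 2628 genes were higher and 3337 lower of 14402 tested, and 2133 of the 2175 and 2507 of the 2624 kept their call. The calls are relative to the rest of the converted RNA: with all-read totals as library size all genes shifted up by 3.02 on the log2 scale at the median, and 13425 were higher and 89 lower. Per gene, the converted share itself was higher with the long label in 11143 of 11910 genes (93.6%) and lower in 12.

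**Figure D2:**
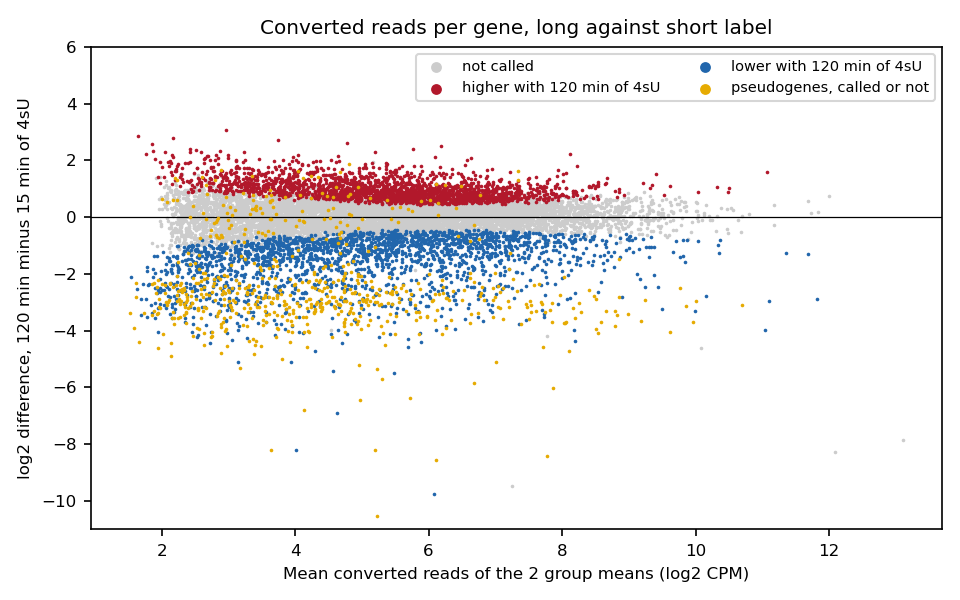
Log2 difference in converted CPM, 120 min minus 15 min of 4sU, against the mean level of the gene in log2 CPM, 1 point per gene tested. Red points are genes higher with the long label and blue points genes lower, both without pseudogenes. Yellow points are all pseudogenes tested, called or not, whose median is -2.75. The pseudogenes hold 35 of the 2175 higher and 521 of the 2624 lower genes.

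Taken as sets, the called genes differed most in the median long-label share. Among the 2175 higher genes the median converted share was 48.3% with the long label, 3.23% with the short label and 2.43% at 0 min. Among the 2624 lower genes these medians were 15.1%, 3.48% and 2.92%, and among genes not called 29.1%, 3.26% and 2.41%. The short-label medians of the 3 sets lay close together, and the long-label medians far apart. These medians do not describe every lower gene: 755 of them were among 768 genes with a share of 20% or more at 0 min. Those 768 had median shares of 83.1% with the long label, 81.9% with the short label and 78.4% at 0 min. Because the calls use both labels, these shares describe them and test nothing.

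Few of the lower genes stood above the mitotic level with the short label. In the short-label libraries the converted share was higher at 120 min than at 0 min in 2157 of 11429 genes tested (18.9%) and lower in 53 (0.464%). Of the lower genes tested there, 113 of 2566 (4.40%) had a higher share at 120 min than at 0 min, against 432 of 1936 (22.3%) of the higher genes and 1607 of 6619 (24.3%) of those not called. Without short-label replicate 3 the 120 min share was higher in 1786 and lower in 52 genes of 11311. The 2 comparisons share the 4 short-label libraries. When the 0 min share was subtracted first, 452 genes were higher (5.34%) and 236 lower (2.79%) with the long label, of 8472 tested. Of the lower genes that could still be tested, 169 of 1153 (14.7%) were lower again and 60 (5.20%) were now higher. Of the higher genes 170 of 1914 (8.88%) stayed higher and 0 were lower. Genes not called were higher in 222 of 5399 (4.11%) and lower in 62 (1.15%). The fit after subtraction used the same 7 libraries as the calls, so these counts describe the calls and test nothing.

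Pseudogenes were low with the long label and had high shares under each label. Of 644 pseudogenes tested 35 were higher and 521 lower, against 18.3% and 22% of all genes, with a median of -2.75. Their median converted share was 71.0% with the long label, 64.8% with the short label and 62.3% at 0 min. ACTBP1 (ENSG00000229145, chrX:46288016-46289128, hg38), a processed copy of the beta-actin gene, had 21.5, 20.2 and 18.2 converted CPM with the long label, against 334, 303, 1026 and 450 with the short label. The groups did not overlap (log2 difference -4.71 ± 0.46, adjusted p = 2.07e-05), yet 100% of its reads carried a conversion in every one of these 7 libraries and 100, 100 and 99.9% at 0 min. Values of near-identical copies are uncertain, since the counting can split reads between them, and how far this sets their converted reads was not tested.

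Other genes with near-identical copies moved with them. ACTG1P9, a copy of gamma-actin, fell by 4.56 ± 0.44 on the log2 scale, and MTRNR2L1 and MTRNR2L12, nuclear copies of the mitochondrial 16S ribosomal RNA gene, differed by -6.39 ± 0.76 and -6.02 ± 1.00. RN7SKP203, a copy of the 7SK RNA, fell by 5.10 ± 1.11. SNORD3A, the U3 small nucleolar RNA, of which the genome holds several copies, had 2.76, 0.879 and 1.38 CPM with the long label, against 30.8, 24.4, 258 and 36.6 with the short label, a log2 difference of -5.49 ± 1.13. All 5 were called lower (adjusted p = 2.02e-05 to 0.0108), and short-label replicate 3 was the highest library for each. Without it the difference was -5.64 for MTRNR2L1, -4.91 for MTRNR2L12, -3.98 for RN7SKP203 and -4.16 for SNORD3A, each still called. SYN2, a synapsin gene, fell by 4.58 ± 0.40 and had shares of 44.4, 61.1 and 64.1% with the long label, 73.4, 71.9, 61.5 and 83.5% with the short label and 60.8, 80.1 and 45.0% at 0 min.

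Over the whole table, 768 genes had a share of 20% or more at 0 min, of which 472 are pseudogenes. Of them 2 were higher and 755 lower, against 18.3% and 22% of all genes, with a median of -2.98. Their median shares were 83.1, 81.9 and 78.4% with the long label, the short label and at 0 min. With these genes removed before the fit, 1842 genes were higher and 2090 lower of 11133.

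Immediate early genes encode transcription factors and signalling regulators that are induced within minutes and whose RNAs are short-lived. Of 30 tested, 8 were higher and 2 lower, with a median of 0.50, against 0.05 over all genes, and without short-label replicate 3 it was 15 and 2. All genes together had 18.3% higher and 22% lower. With each gene's all reads as offset, 29 of the 30 were higher and 1 lower, against 31.2% and 29.2% of all genes. Their all reads differed by a median of -0.71 between the labels, with none called. FOS (ENSG00000170345, chr14:75278774-75282230), an AP-1 subunit, had 114, 39.6 and 130 converted CPM with the long label, against 44.3, 18.3, 57.5 and 35.5 with the short label. The groups overlapped through long-label replicate 2 (log2 difference 1.36 ± 0.41, adjusted p = 0.0212). JUN, its AP-1 partner, had 461, 455 and 762 CPM with the long label, against 151, 113, 455 and 272 with the short label, so the nearest libraries met (1.20 ± 0.41, adjusted p = 0.0356). MCL1, an inhibitor of apoptosis with a short-lived RNA, had 1187, 868 and 1174 with the long label, against 381, 387, 772 and 459 with the short label (1.11 ± 0.30, adjusted p = 0.0112), and did not overlap. EGR3 rose by 1.42 ± 0.26 and KLF4, both zinc finger transcription factors, by 1.40 ± 0.44 (adjusted p = 0.00124 and 0.0251), KLF4 with no library above 16.6 CPM. The 2 lower members were JUND (-1.65 ± 0.33), another AP-1 subunit, and DUSP1 (-0.86 ± 0.29), a phosphatase of MAP kinases, which does overlap.

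Some of these genes carried their highest short-label share in mitosis. Of 28 immediate early genes tested for the short-label share, 10 had a lower value at 120 than at 0 min and 2 had a higher one, against 0.464% and 18.9% of all genes. The share of FOS reads with a conversion was 15.7, 25.4 and 22.8% at 0 min, and its mean was 15.6% at 30 min, 7.96% at 60 min, 4.39% at 90 min and 2.64% at 120 min. The long-label share of FOS was 81.1, 66.0 and 80.8%, against 2.22, 2.41, 3.53 and 2.41% with the short label at 120 min. The short-label share at 120 min was lower than at 0 min by 3.07 ± 0.21 on the log2 scale (adjusted p = 3.8e-08).

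ATF3, a stress-induced transcription factor, and PTGS2, the inducible cyclooxygenase of the inflammatory list, had their highest short-label share at 0 min as well. ATF3 had a share of 82.3, 70.1 and 85.1% with the long label, against 3.96, 3.36, 3.23 and 3.33% with the short label at 120 min and 24.5, 43.0 and 36.4% at 0 min, so that 120 min was lower than 0 min by 3.31 ± 0.20 (adjusted p = 6.1e-09). For PTGS2 this difference was -2.46 ± 0.19 and for EGR1, a zinc finger transcription factor, -1.03 ± 0.22 (adjusted p = 2e-07 and 0.0032). Their converted CPM did not pass the test between labels, with log2 differences of 0.71 ± 0.32 for ATF3, -0.47 ± 0.24 for PTGS2 and 0.06 ± 0.30 for EGR1. FOS, JUN, ATF3, PTGS2, EGR1 and DUSP1 were named after their values were seen.

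Of 20 inflammatory and NF-kB genes tested 5 were higher and 2 lower, with a median of 0.13 (7 and 1 without short-label replicate 3), against 18.3% higher and 22% lower of all genes. BIRC3, a ubiquitin ligase and NF-kB target (ENSG00000023445, chr11:102317450-102339403), had 64.3, 86.0 and 77.1 CPM with the long label, against 18.0, 20.3, 19.2 and 27.2 with the short label. The groups lay apart (log2 difference 1.82 ± 0.20, adjusted p = 4.76e-05), and its share was 75.9, 64.6 and 75.9% against 2.29, 2.72, 2.61 and 2.95%. IL11, a cytokine, was higher by 1.29 ± 0.36 (adjusted p = 0.0135), with 447, 194 and 286 CPM for the long label against 90.5, 87.0, 226 and 116 for the short label, where short-label replicate 3 overlaps. Of 21 p53 target genes 1 was higher and 2 were lower, and 2 and 3 without short-label replicate 3. With each gene's all reads as offset, 11 of the 21 were higher and 3 lower, and their median turned from -0.08 to 0.35. With that offset 14 of the 20 inflammatory genes were higher and 0 lower, against 31.2% and 29.2% of all genes.

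Genes of KRAB and other C2H2 zinc fingers, DNA-binding repressors that fill large clusters on chromosome 19, were mostly higher with the long label. Of 34 tested, 27 were higher and none lower, against 18.3% and 22% of all genes, with a median of 0.88. The counts were 27 and 0 without short-label replicate 3. After subtraction of the 0 min share 2 of 32 were higher and none lower, against 5.34% and 2.79% of all genes, with a median of 0.99. Their median share was 59.7% with the long label, 3.65% with the short label and 2.51% at 0 min. ZNF84 (ENSG00000198040, chr12:133037292-133063304) had 99.3, 114 and 123 CPM with the long label, against 44.9, 42.7, 22.6 and 37.8 with the short label. Each long-label library was above each short-label library (log2 difference 1.54 ± 0.20, adjusted p = 0.00014). ZNF224 rose by 1.81 ± 0.21, ZNF37A by 1.25 ± 0.24 and ZNF121, the highest of the list in CPM, by 0.70 ± 0.20 (adjusted p = 6.37e-05, 0.00156 and 0.0164).

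The 12 largest rises under the naming rule, other than those in the lists, included a gene outside any list that encodes a zinc finger, ZNF616 (1.81 ± 0.26), and ZNF830, a splicing-associated zinc finger protein (2.31 ± 0.25). G0S2 (ENSG00000123689, chr1:209675420-209676388), an inhibitor of the lipase ATGL, had 89.7, 77.5 and 100 CPM with the long label, against 7.06, 11.2, 36.6 and 21.9 with the short label (2.41 ± 0.35, adjusted p = 0.00029). MFAP1, a spliceosome protein, rose by 2.14 ± 0.25, UTP3, a ribosome biogenesis factor, by 2.03 ± 0.27, and ING1, a chromatin reader, by 1.86 ± 0.23. Of these, MFAP1 had 73.3, 131 and 130 CPM with the long label, against 29.5, 27.0, 26.1 and 18.9 with the short label, with shares of 37.7, 33.7 and 39.8% against 1.66, 1.99, 1.95 and 1.73%. The naming rule took called genes without overlap, so neither is an observation about these 6.

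Long non-coding RNAs held more rises than falls. Of 346 tested by annotation, 111 were higher and 31 lower, with a median of 0.44, and of 19 nuclear long non-coding RNAs 5 were higher and 2 lower (8 and 2 without short-label replicate 3), with the same median, against 18.3% and 22% of all genes. KCNQ1OT1 (ENSG00000269821, chr11:2608328-2699994), which lies antisense within KCNQ1, had 265, 547 and 563 CPM with the long label, against 110, 118, 33.1 and 122 with the short label (2.22 ± 0.38, adjusted p = 0.00079). NEAT1, the RNA scaffold of paraspeckles, had 778, 924 and 864 CPM with the long label, against 425, 519, 246 and 475 with the short label (1.03 ± 0.27, adjusted p = 0.0108). ALOX12-AS1 and MAMDC2-AS1 rose by 2.52 ± 0.20 and by 1.93 ± 0.25 (adjusted p = 7.86e-06 and 0.000125). Whether counting used strand is not given in the sources used here, so reads of an antisense RNA and of its partner cannot be told apart.

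MIR31HG, host of the microRNA miR-31, had the highest mean converted CPM over the 7 libraries among the nuclear long non-coding RNAs. It had 4555, 5849 and 4997 converted CPM with the long label, against 2429, 3294, 2159 and 4417 with the short label, and did not pass the test (0.74 ± 0.35, adjusted p = 0.108). Its share was 85.0, 76.3 and 86.4% with the long label, against 5.54, 6.29, 9.83 and 7.16% with the short label at 120 min and 2.30, 3.77 and 2.87% at 0 min. The short-label share was thus higher at 120 min than at 0 min (1.27 ± 0.22 on the log2 scale, adjusted p = 0.00076). C1orf132 was higher with the long label by 1.11 ± 0.26 and in the short-label share at 120 min by 1.31 ± 0.27. HMGA2, an architectural chromatin protein, named after its values were seen, had a higher short-label share at 120 min by 1.29 ± 0.20 (adjusted p = 0.0004) and no call between labels (0.58 ± 0.38).

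Of 33 splicing regulator genes tested 9 were higher, 6 lower and the median was 0.22, against 18.3% higher and 22% lower of all genes. CLK1, a kinase of SR proteins (ENSG00000013441, chr2:200853009-200864744), had 199, 225 and 233 CPM with the long label, against 116, 108, 83.6 and 83.3 with the short label, without overlap (1.16 ± 0.19, adjusted p = 0.000675). HNRNPK, an abundant RNA-binding protein, fell by 1.40 ± 0.26 (adjusted p = 0.00148), with shares of 12.1, 11.2 and 9.57% with the long label, against 3.31, 3.62, 4.37 and 3.57% with the short label. The share of CLK1 reads with the long label was 77.2, 69.6 and 75.1%.

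Ribosomal protein genes were lower as a group, and their RNAs are among the most stable in cells. Many of them start transcription at a C followed by a run of pyrimidines, the 5′ TOP motif, through which their translation is controlled by mTOR. The start sites below show the run in ribosomal protein, translation factor and small RNA host genes, and 3 windows without it from the zinc finger and mitotic lists, picked as examples. Each window holds 15 bases before and 15 after a RefSeq start of the gene on the sense strand (GRCh38.p14), and capitals mark a C followed by at least 4 C or T that begins within 5 bases of that start. Where a gene has several RefSeq starts, a start with the run was shown if there was any. Such a gene was also counted as having the motif.
RPLP0 chr12:120201097-120201126, minus strand: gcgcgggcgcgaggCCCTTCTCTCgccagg
RPL3 chr22:39319609-39319638, minus strand: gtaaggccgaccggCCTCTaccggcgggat
RPL10 chrX:154398362-154398391, plus strand: caggcggaggagcgCCTCTTTCCCTTCggt
EEF1A1 chr6:73521018-73521047, minus strand: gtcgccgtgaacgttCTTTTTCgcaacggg
EEF2 chr19:3985449-3985478, minus strand: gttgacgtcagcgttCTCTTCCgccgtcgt
ZFAS1 chr20:49278627-49278656, plus strand: aggaagccattcgttCTTTCgcgtctgcgg
SNHG16 chr17:76557749-76557778, plus strand: cgcaggggcggtctcgcgttCTTTTCgagg
ZNF84 chr12:133037494-133037523, plus strand: cgtgatcgcgaggccgcgggcgcgcgggcg
ZNF224 chr19:44094346-44094375, plus strand: gtccaaacattcggtggagtcgcggacact
CDC20 chr1:43358966-43358995, plus strand: caggcgtgttaaagccggtcggaactgctc
The motif was in 51 of 58 ribosomal protein genes with a RefSeq window (87.9%), in 13 of 17 translation factors (76.5%) and in 11 of 15 small RNA host genes (73.3%), against 2631 of 8739 genes tested (30.1%). It was in 29.1% of the higher and 31.8% of the lower genes, in 7 of 31 mitotic genes (22.6%) and in 9 of 30 zinc finger genes (30%). Only the sense strand was searched, and runs may overlap other motifs.

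Of 74 ribosomal protein genes tested 1 was higher and 66 lower with the long label, against 18.3% and 22% of all genes. The median of the list was -1.08, and without short-label replicate 3 the counts were 1 and 65. Their median share was 10.8% with the long label, 2.76% with the short label and 2.04% at 0 min. RPL3 (ENSG00000100316, chr22:39312882-39320389), the subunit gene with the highest mean CPM over the 7 libraries, had 209, 165 and 258 CPM with the long label, against 642, 447, 869 and 460 with the short label. The groups lay apart (-1.52 ± 0.30, adjusted p = 0.0019), with shares of 9.72, 9.32 and 9.17% with the long label, 2.93, 2.98, 2.91 and 2.82% with the short label and 2.29, 2.78 and 2.23% at 0 min. RPLP0, of the ribosomal stalk, had 99.6, 56.1 and 81.4 CPM with the long label and 389, 342, 866 and 431 with the short label (-2.67 ± 0.36, adjusted p = 0.000176). RPS2 and RPL10 fell by 2.41 ± 0.51 and by 2.05 ± 0.38 (adjusted p = 0.00383 and 0.00144), and RPS2 was at -1.71 without short-label replicate 3. The 1 higher member was RPS29 (0.56 ± 0.17, adjusted p = 0.019), named after its values were seen, whose share was 65.1, 56.8 and 65.3% with the long label and 5.93 to 7.03% with the short label. Ribosomal protein genes have many near-identical pseudogenes, so the split of their reads is uncertain.

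Some ribosomal protein genes stood above the mitotic level with the short label. Of the 74, 27 had a higher short-label share at 120 min than at 0 min and none a lower one, against 18.9% and 0.464% of all genes. After subtraction of the 0 min share, 0 of 72 tested were higher and 23 lower with the long label, against 5.34% and 2.79% of all genes.

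Translation factors did likewise at a smaller size, with 0 of 24 higher and 10 lower (median -0.35), though with the 0 min share subtracted first the median was 0.11. Among all genes 18.3% were higher and 22% lower. EEF1A1, the elongation factor that brings aminoacyl-tRNA to the ribosome (ENSG00000156508, chr6:73515750-73523797), had 506, 363 and 495 CPM with the long label, against 1100, 1127, 2195 and 1086 with the short label. These groups did not overlap (-1.60 ± 0.33, adjusted p = 0.0026), and short-label replicate 3 was the highest. EEF2, the translocase, fell by 1.32 ± 0.37 (adjusted p = 0.0143).

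Small RNA host genes carry small nucleolar RNAs in their introns, and many of their spliced RNAs are degraded during translation. Of 17 tested none was higher and 7 were lower (median -0.39), against 18.3% and 22% of all genes. Their median share was 58.2% with the long label, 6.13% with the short label and 3.25% at 0 min. GAS5 (ENSG00000234741, chr1:173863900-173868882) had 359, 326 and 369 CPM with the long label, against 474, 594, 669 and 579 with the short label. No library crossed over (-0.72 ± 0.22, adjusted p = 0.0234), and its share was 62.3, 57.2 and 54.7% with the long label, against 6.37, 7.50, 8.45 and 8.94% with the short label and 3.95, 4.28 and 4.01% at 0 min. Both SNHG16 and C6orf48 were lower, by -1.65 ± 0.22 and -1.45 ± 0.24 (adjusted p = 0.00014 and 0.000628).

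Most small RNA host genes stood above the mitotic level with the short label. Of the 17, 12 had a higher short-label share at 120 min than at 0 min and none a lower one, against 18.9% and 0.464% of all genes. After subtraction of the 0 min share 8 of 17 were lower with the long label and none higher, against 2.79% and 5.34% of all genes. ZFAS1 had a share of 82.6, 73.5 and 81.5% with the long label, against 7.41, 10.2, 13.0 and 12.3% with the short label at 120 min and 3.27, 4.37 and 3.63% at 0 min. Its short-label share was higher at 120 min than at 0 min by 1.51 ± 0.21 (adjusted p = 0.00027), and its CPM between labels differed by -0.23 ± 0.24 (adjusted p = 0.474). TAF1D, a subunit of the RNA polymerase I factor SL1, had a higher short-label share at 120 min by 1.16 ± 0.20 and a label difference of 0.57 ± 0.24 (adjusted p = 0.0745; 0.56 and 0.0360 without short-label replicate 3). ZFAS1 and TAF1D were named after their values were seen.

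**Figure D3:**
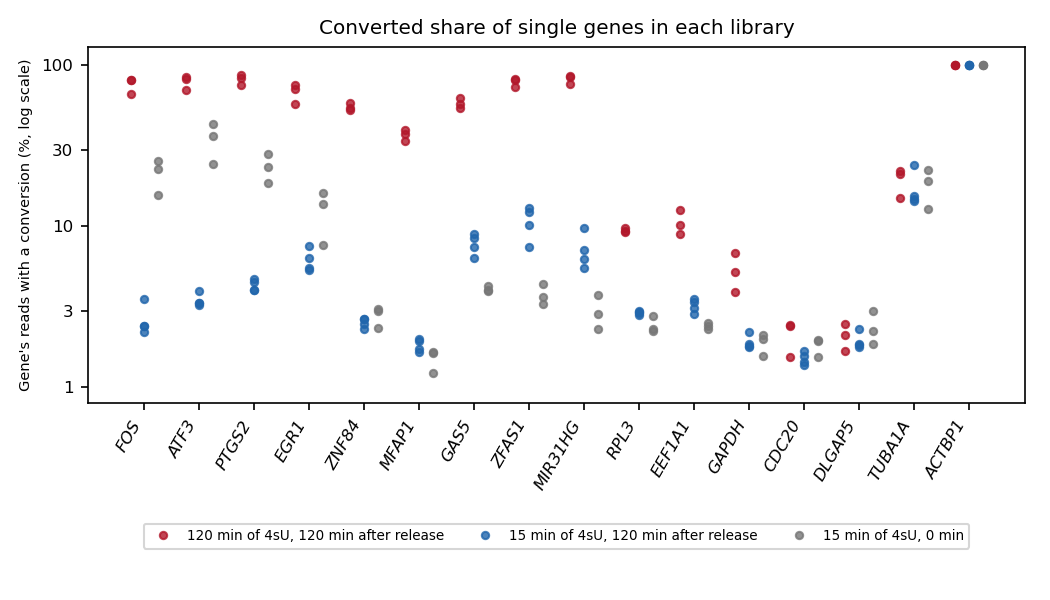
Converted share of 16 genes in each library, as percent of the gene's reads on a log axis, for the long label, the short label at 120 min and the short label at 0 min. FOS, ATF3 and PTGS2 lie higher at 0 min than with the short label at 120 min, GAS5, ZFAS1 and MIR31HG lie the other way, and ACTBP1 is at about 100% throughout.

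Glycolysis genes, whose enzymes are made from abundant RNAs, were lower with the long label in 14 of 18 tested, with 1 higher and a median of -1.38. Among all genes 22% were lower and 18.3% higher. With the 0 min share subtracted first the median was 0.11, with 2 higher and 2 lower of 17 tested, against 5.34% and 2.79% of all genes. GAPDH (ENSG00000111640, chr12:6533927-6538374) had 308, 150 and 183 CPM with the long label, against 876, 631, 2430.4 and 778 with the short label, and shares of 6.88, 5.21 and 3.91% against 1.82, 1.79, 2.20 and 1.87%. The groups lay apart, with short-label replicate 3 far above the rest (-2.46 ± 0.49, adjusted p = 0.00208), and without that replicate the difference was -1.83 (adjusted p = 3.2e-05). TPI1 and ENO2 fell by 2.32 ± 0.37 and by 2.28 ± 0.31 (adjusted p = 0.000532 and 0.000187). The 1 higher gene was PFKFB3 (0.60 ± 0.17, adjusted p = 0.0168), which makes the activator of phosphofructokinase, named after its values were seen. No glycolysis gene of 18 passed between the short-label shares at 120 and 0 min, against 18.9% higher and 0.464% lower of all genes.

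Nuclear genes of oxidative phosphorylation were lower in 17 of 35 tested and higher in none, with a median of -0.63. ATP5B, of the ATP synthase, fell by 1.39 ± 0.25 (adjusted p = 0.00101). Transcripts of the mitochondrial genome went both ways, with 6 of 15 higher and 3 lower (9 and 2 without short-label replicate 3) and a median of 0.59. For all genes the shares were 18.3% higher and 22% lower. MT-ND1 (ENSG00000198888, chrM:3307-4262), a complex I subunit, had 362, 525 and 501 CPM with the long label, against 95.6, 119, 214 and 111 with the short label (1.80 ± 0.29, adjusted p = 0.000493). MT-ND6, encoded on the other strand, rose by 2.08 ± 0.36 (adjusted p = 0.000962), and MT-ND2, MT-ND3 and MT-ND5 each by 1.54 (SE 0.24, 0.29 and 0.28). Beside these complex I subunits MT-ATP6, of complex V, was higher (0.78 ± 0.25, adjusted p = 0.0243), while the complex I transcripts MT-ND4 and MT-ND4L did not pass (0.64 ± 0.30 and 0.53 ± 0.31, adjusted p = 0.110 and 0.197). All but MT-ND1 and MT-ND6 were named after their values were seen.

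The 3 lower mitochondrial RNAs were MT-CO3 (-1.04 ± 0.28), of complex IV, MT-CYB (-0.81 ± 0.28), of complex III, and the 16S ribosomal RNA MT-RNR2 (-3.99 ± 0.98, adjusted p = 0.00921). MT-CO3 and MT-CYB, named after their values were seen, had shares of 7.20, 11.5 and 7.41% and of 8.06, 10.1 and 8.16% already at 0 min. MT-RNR2 had 521, 50.8 and 170 CPM with the long label, against 2446, 884, 9694 and 2759 with the short label, and lost its call without short-label replicate 3 (-3.03, adjusted p = 0.075). Ribosomal RNA was removed before sequencing, per the labels' protocols. Mitochondrial transcripts also have near-identical nuclear copies, as given above.

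Replication-dependent histone genes, made in S phase and lacking poly(A) tails, had a median of 1.00, the highest of the lists with 10 or more tested members. Of 27 tested 14 were higher and 1 lower, against 18.3% and 22% of all genes, and 23 and 1 without short-label replicate 3. Their median share was 43.7% with the long label, 2.44% with the short label and 2.27% at 0 min. None of 20 tested passed between the short-label shares at 120 and 0 min, against 18.9% higher and 0.464% lower of all genes. HIST2H2BE, named after its values were seen, had 45.1, 77.3 and 70.7 CPM with the long label, against 19.3, 21.4, 24.4 and 18.9 with the short label (1.64 ± 0.23, adjusted p = 0.000187). HIST1H2BO and HIST1H2BF, at lower levels, rose by 1.89 ± 0.39 and by 2.04 ± 0.53 (adjusted p = 0.00247 and 0.00984), HIST1H2BF by 2.74 without short-label replicate 3. The 1 lower gene, HIST1H4C, fell by 2.76 ± 0.33 (adjusted p = 8.52e-05), with shares of 60.2, 59.6 and 57.4% with the long label, 27.4, 28.9, 26.2 and 30.1% with the short label and 25.9, 28.3 and 21.6% at 0 min. Histone genes are near copies of each other, so their reads can be split among members.

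Mitotic genes, whose transcription peaks in G2 and M, were lower in 35 of 37 tested, with none higher and a median of -1.91. Without short-label replicate 3 none was higher and 33 were lower, and among all genes 18.3% were higher and 22% lower. Their median share was 3.37% with the long label, 1.62% with the short label and 2.15% at 0 min. BIRC5 (survivin, ENSG00000089685, chr17:78214186-78225636) had 14.9, 10.6 and 19.8 CPM with the long label, against 140, 96.7, 225 and 115 with the short label, without overlap (-3.22 ± 0.32, adjusted p = 2.3e-05). Its share was 2.14, 1.92 and 2.26% with the long label, against 1.99, 1.86, 2.42 and 1.98% with the short label and 2.44, 3.07 and 1.85% at 0 min, and these overlap. CDC20, an activator of the anaphase-promoting complex, and DLGAP5, a spindle protein, fell by 2.78 ± 0.33 and by 2.75 ± 0.29 (adjusted p = 6.7e-05 and 3.45e-05). MKI67, the proliferation marker, fell by 1.42 ± 0.34 (adjusted p = 0.00647). UBE2C, a ubiquitin-conjugating enzyme, and CDK1, the mitotic kinase, both named after their values were seen, were the 2 that did not pass (0.11 ± 0.53 and -0.26 ± 0.46). Since the short-label share did not exceed that at 0 min, subtraction of the 0 min share left 12 of the 37 to test, and no direction is read from them.

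**Figure D4:**
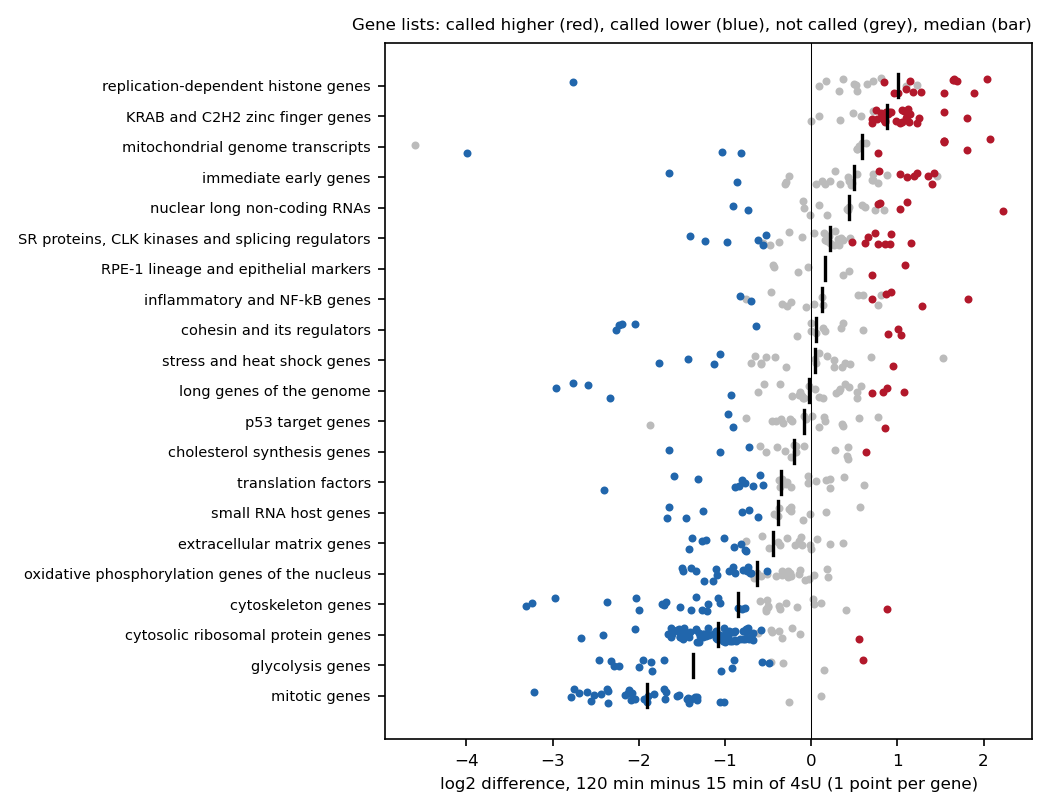
Log2 difference in converted CPM, 120 min minus 15 min of 4sU, of each tested member of the gene lists, 1 point per gene, red where higher and blue where lower by the test and grey where not called, with the list's median as a bar. Lists run from the histone genes with a median of 1.00 to the mitotic genes with -1.91; the median of all genes is 0.05.

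Cytoskeleton genes were lower in 20 of 35 tested and higher in 1, ZYX, a focal adhesion protein, named after its values were seen (0.88 ± 0.22, adjusted p = 0.00716), with a median of -0.85 that was 0.14 after subtraction of the 0 min share. Shares over all genes were 22% lower and 18.3% higher. ACTB fell by 3.24 ± 0.40, TUBA1A by 3.31 ± 0.53 and TUBA1C by 2.97 ± 0.39 (adjusted p = 9.17e-05, 0.000507 and 0.000137), TUBA1A being at -2.65 without short-label replicate 3. TUBA1A had a share of 22.0, 15.1 and 21.2% with the long label, 14.7, 14.4, 24.1 and 15.5% with the short label and 12.9, 22.5 and 19.2% at 0 min. Tubulin and actin genes have near-identical paralogs and pseudogenes, and these values are uncertain for that reason.

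Extracellular matrix genes were lower in 9 of 24 tested and higher in none, with a median of -0.44 (12 lower without short-label replicate 3). Lower and higher genes made up 22% and 18.3% of all genes. FN1 (fibronectin, ENSG00000115414, chr2:215360440-215436172) had 1611, 1561 and 1455 CPM with the long label, against 4049, 3614, 3333 and 3811 with the short label. The groups lay far apart relative to their spread (-1.26 ± 0.29, adjusted p = 0.00496). LOX, a cross-linking enzyme of collagen, and THBS1, thrombospondin, fell by 1.42 ± 0.25 and by 1.38 ± 0.34 (adjusted p = 0.000968 and 0.00696). Of the 24, 11 had a higher short-label share at 120 min than at 0 min and none a lower one, against 18.9% and 0.464% of all genes. THBS1 was among the 11 (0.52 ± 0.17, adjusted p = 0.036).

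Of 17 cohesin genes and regulators 3 were higher, among them CTCF, the boundary factor of cohesin loops, named after its values were seen (0.89 ± 0.17, adjusted p = 0.0018), and 5 lower, among them SGO1, the protector of centromeric cohesion (-2.26 ± 0.30, adjusted p = 0.000145), against 18.3% higher and 22% lower of all genes. NIPBL itself had 316, 409 and 374 CPM with the long label, against 307, 343, 159 and 319 with the short label, and did not pass (0.37 ± 0.27, adjusted p = 0.292). Its short-label share was higher at 120 min than at 0 min (0.77 ± 0.20, adjusted p = 0.0091). Stress and heat shock genes were higher in 1 and lower in 4 of 23 (3 and 3 without short-label replicate 3), among the lower HSP90B1 (-1.43 ± 0.24), HSP90AA1 (-1.13 ± 0.30), both chaperones, and CHAC1 (-1.76 ± 0.48), which degrades glutathione. Cholesterol synthesis genes were higher in 1 and lower in 3 of 17. Of 8 RPE-1 markers tested SIX3 and PAX6, eye-field transcription factors, were higher (1.09 ± 0.22 and 0.71 ± 0.19, adjusted p = 0.00227 and 0.0112) and none lower. Of 3 neuron markers 1 was lower, SYT1 (-0.68 ± 0.24, adjusted p = 0.0357), a synaptic vesicle protein, and the cardiomyocyte list had no gene with enough reads to test. The 3 small nuclear and related RNAs tested were all lower, with a median of -2.88, SNORD3A included. Their all reads differed by a median of -2.91 as well, with none called. With each gene's all reads as offset the median was -0.29, and 1 of the 3 was lower. Two-label levels were low, with long-label means of 0.72 CPM for RNU5B-1 and 1.58 CPM for RNU4-2.

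Genes under 5 kb had the lowest median difference between labels, which was smaller in size in protein-coding genes. The median log2 difference was -1.95 in 1440 genes under 5 kb (125 higher, 924 lower), -0.08 in 2614 genes of 5 to 20 kb, 0.06 in 3109 of 20 to 50 kb, 0.18 in 2173 of 50 to 100 kb, 0.23 in 1534 of 100 to 200 kb and 0.21 in 1046 over 200 kb (171 higher, 105 lower). The SD of these medians over libraries was 0.36 under 5 kb and 0.32 over 200 kb. With protein-coding genes only the median under 5 kb was -0.34, and without genes at 20% or more at 0 min it was -0.24. The median length was 41.2 kb in the higher, 12.8 kb in the lower and 44.9 kb in the uncalled genes. When the 0 min share was subtracted, the median was 0.11 in the 377 genes under 5 kb still tested. Genes over 200 kb then turned to -0.42. Their median share was 40.4% with the long label, 5.18% with the short label and 2.69% at 0 min.

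**Figure D5:**
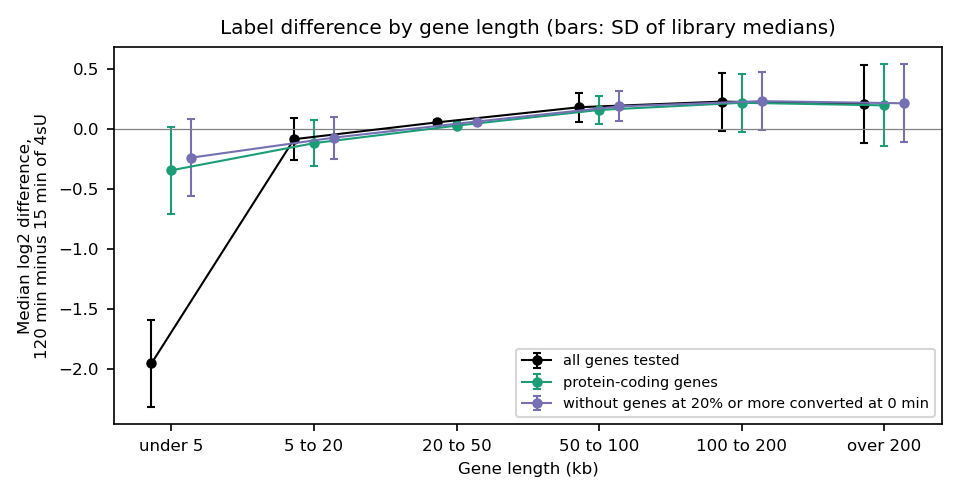
Median log2 difference in converted CPM, 120 min minus 15 min of 4sU, by gene length in kb, for all genes tested, protein-coding genes and genes under 20% converted at 0 min. Bars are the SD of the library medians; all genes under 5 kb are at -1.95, the other curves at -0.34 and -0.24.

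Among long genes of the genome, 4 of 31 were higher and 5 lower, against 18.3% and 22% of all genes. Of these 31, 17 had a higher short-label share at 120 min than at 0 min and none a lower one. In all genes tested those shares were 18.9% and 0.464%. EXT1, a heparan sulfate polymerase (ENSG00000182197, chr8:117794490-118111853), had 1722, 1761 and 1728 CPM with the long label, against 588, 1120, 470 and 1119 with the short label (1.07 ± 0.34, adjusted p = 0.0236), without overlap. MACROD2 and PTPRD fell by 2.76 ± 0.44 and by 2.59 ± 0.60 (adjusted p = 0.000541 and 0.00512), at 19.2 CPM or less in each library. In short-label replicate 1 their shares were 66.7 and 55.6%, against 5.95 to 17.9% and 5.79 to 13.7% in the other short-label libraries.

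The same contrast was run in the release series, in 6 other libraries. There 1494 genes were higher (10.2%) and 2283 lower (15.6%) with the long label, of 14655 tested. Of the higher genes 654 were called in both series, 30.1% of the mitosis-series list and 43.8% of the release-series list, and of the lower genes 1303, or 49.7% and 57.1%. The difference of the label effect between the series, tested as an interaction, was called in 929 of 14627 genes (6.35%), 305 with a larger value in the mitosis series and 624 with a smaller one. These counts rest on single libraries: leaving out 1 gave 32 to 532 and 87 to 1050, the lowest without release-series short-label replicate 3 and the highest without release-series long-label replicate 3, and without mitosis-series long-label replicate 2 they were 40 and 87. With each gene's all reads as offset they were 1578 and 1814. By list, the release series had 0 higher and 56 lower of 74 ribosomal protein genes, 16 and 0 of 34 zinc finger genes, 0 and 17 of 37 mitotic genes, 15 and 0 of 26 immediate early genes, 8 and 0 of 15 mitochondrial transcripts and 0 and 1 of 24 histone genes. The interaction passed for 7 of 37 mitotic genes, each with a smaller value in the mitosis series, and for 4 of 27 histone genes, each with a larger one.

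In the mitosis series with dTAGV-1, which degrades NIPBL, the contrast gave 2118 higher (15.3%) and 2680 lower (19.3%) genes of 13866, again from 6 other libraries. Of the genes called with DMSO and tested there, 1410 of 2175 were higher and 1810 of 2605 lower, and none was called in the opposite direction. The difference of the label effect between dTAGV-1 and DMSO passed for 0 of 13439 genes (0%) by edgeR's quasi-likelihood test, with 625 at an unadjusted p under 0.05.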

How the data were processed

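SLAM-seq libraries of total RNA, depleted of ribosomal RNA, were used from 7 DMSO libraries of the mitosis series, with 53 others of the same cells for the mitotic level, the fit on all mitosis-series libraries, the release series and dTAGV-1. Per the submitters' processing notes, reads were treated with HISAT, Picard and HTSeq on hg38, with options not given in the sources used here. The authors deposited counts per gene of reads with a conversion and of all reads, as whole numbers, and counts of T positions, none scaled across libraries, per the file headers. Files list genes with a read, and others were set to 0. Of 48775 genes named, 186 (Y chromosome, X inactivation centre) were not used.

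For converted counts, the test was edgeR's quasi-likelihood F test (robust, TMM, filterByExpr with min.count 10 and min.total.count 15), two-sided, calling genes at a Benjamini-Hochberg adjusted p under 0.05. All reads and, with all reads as offset, converted shares were tested likewise. The SE is the absolute log2 difference over the root of F. Shares of libraries were compared with an exact permutation test. Fits ran in edgeR 4.0.16 and DESeq2 1.42.0 under R 4.3.3, summaries in pandas 2.3.3 under Python 3.11.15, and the models were checked on simulated counts. Promoter windows and names were taken from RefSeq by symbol.

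The members and lists were chosen with earlier results of these data known. Genes named are the 12 largest rises and 12 largest falls among called genes with a mean log2 CPM of at least 5, reads in every library, no overlap and no clone name, up to 3 called members of each list with the largest change, each list's member of highest CPM, and NIPBL, of which the text gives a selection. A gene outside this rule is marked as named after its values were seen. Alternatives were DESeq2, its size factors, other filters, all-read totals, offsets, a replicate block, subtraction of the 0 min share, wider fits, converted T positions, mean short pulses and leaving out each library. Chosen after seeing the data were the list counts and the share test without short-label replicate 3, DESeq2 on all reads, and the fits and length medians without genes at 20% or more at 0 min or with protein-coding genes only. Depth limits the short label, with 0.644 to 2.03 M converted reads, and replicates differed by more than counting error. Some results are not reported here.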

Additional observations from a re-analysis of the deposited data

Results flagged for a closer look

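Short-label replicate 3 stood far from the other 3 short-label libraries in 18 of 98 measures tested. Chance flags about 1 in 20 independent groups. Since 94 of these measures are named genes in the same 4 libraries, they are not independent, and the 18 cannot be set against that rate. The share of its converted reads in 10 genes was 13.5%. In converted CPM it was the lowest library for KCNQ1OT1 at 33.1 and the highest for the other 16 genes. These were HIST1H2BO at 19.2, HIST1H2BF at 8.71, MT-CO3 at 1183, MTRNR2L1 at 246, MTRNR2L12 at 1197, SNORD3A at 258, RN7SKP203 at 666 and RPLP0 at 866. They were also EEF1A1 at 2195, GAPDH at 2430.4, TPI1 at 686, TUBA1A at 3873, ACTB at 2223, MACROD2 and PTPRD at 19.2 each, and CDK1 at 22.6. It had 15.6 M reads, the fewest of the 7 libraries, and the part of depth in these values was not tested.

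The label effect differed between the mitosis and the release series in 16 of 94 named genes, by the interaction in edgeR's quasi-likelihood test at an adjusted p under 0.05. The difference, mitosis minus release series on the log2 scale, was 1.99 for ALOX12-AS1, 1.38 for ZNF830, 1.38 for UTP3, 1.46 for ING1, 2.19 for HIST1H2BO and 0.79 for RPS29. It was negative for the copies and short RNAs, -3.70 for ACTBP1, -7.12 for MTRNR2L1, -5.85 for MTRNR2L12, -5.56 for SNORD3A and -2.53 for ACTG1P9. It was also negative at -3.17 for SYN2, -1.64 for RPLP0, -2.27 for ENO2, -2.49 for ACTB and -1.97 for SHISA2.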

How the results depend on the processing

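The number of genes higher and lower with the long label, 2175 and 2624, was 4095 and 3961 with no filter on low counts, 3757 and 4083 in a fit on all mitosis-series libraries, and 4220 and 3941 against the mean of the short pulses. It was 13425 and 89 with all-read totals as library size and 452 and 236 after subtraction of the 0 min share. With each gene's all reads as offset 3716 were higher, at an absolute log2 difference of at least 1 it was 897, and at a minimum count of 50 the lower genes were 1653. Leaving out 1 library gave 1500 to 2628 higher and 2034 to 3337 lower. On all reads, no filter gave 38 higher and 76 lower, DESeq2 458 and 517, the replicate block 0 lower, and leaving out 1 library 0 to 213 higher and 0 to 212 lower. The replicate block gave 2180 higher and 2542 lower converted genes, and same-numbered libraries deviated together with correlations of -0.0477, 0.418 and 0.192, so the numbers were not taken as pairs. The series difference was 1578 larger and 1814 smaller with the offset, and 32 to 532 and 87 to 1050 without 1 library. The difference in converted share was 21.8 to 24.3 points without 1 library, at p = 0.0667 or 0.1, the smallest those exact tests allow. Without short-label replicate 3 the short-label share at 120 min was higher than at 0 min in 1786 genes and lower in 52. The length medians after subtraction were 0.11 under 5 kb, 0.50 at 20 to 50 kb and -0.42 over 200 kb. Under 5 kb it was -0.34 in protein-coding genes and -0.24 without genes at 20% or more at 0 min. At 20 to 50 kb it was 0.000932 with all-read totals, 0.12 with the offset, 0.030 in protein-coding genes and 0.06 without those genes, and over 200 kb it was 0.22 without them.

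Of 94 genes named, 84 were called, of which 66 kept call and direction without each library in turn. The others lost the call without at least 1 library (adjusted p 0.0508 to 0.181): DUSP1, EEF2, EXT1, FOS, GAS5, HSP90AA1, IL11, JUN, KLF4, MT-ATP6, MT-CO3, MT-CYB, MT-RNR2, PFKFB3, RPS29, SNORD3A, SYT1 and ZNF121. Of these MT-RNR2 lost it without short-label replicate 3 and SNORD3A without long-label replicate 2. Direction turned after subtraction of the 0 min share for MT-CO3 (1.03), MIR31HG (-0.42), HMGA2 (-0.59), C1orf132 (-0.062), ENO2 (0.065), ATP5B (3.27), SNHG16 (0.56), TAF1D (-0.44), HSP90AA1 (3.21), RPS29 (-0.62), SHISA2 (0.92) and NIPBL (-0.36), and 32 genes had no value there. With the offset it turned for PTGS2 (1.28), CHAC1 (0.63), DUSP1 (1.02), SHISA2 (0.55) and UBE2C (-0.42). Uncalled genes turned as follows. ZFAS1 was 0.056 and CDK1 0.024 with no filter. CDK1 was 0.10 on converted T positions, and leaving out 1 library it was -0.64 to 0.15, turned without long-label replicate 2. UBE2C was -0.056 with DESeq2, -0.020 with all-read totals less their shift and -0.30 with the replicate block, and leaving out 1 library it was -0.38 to 0.62, turned without long-label replicate 3 (-0.38) and short-label replicates 2 (-0.083) and 4 (-0.13). EGR1 was -0.00309 at a minimum count of 50, -0.030 with all-read totals less their shift, and -0.12 to 0.29 leaving out 1 library, turned without long-label replicate 3 (-0.12) and short-label replicate 2 (-0.099). The causes of these changes were not tested.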

Other observations

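In short-label replicate 1, 25742 genes had a read, against 29324 to 30809 in the other short-label libraries and 28846 to 36242 in the long-label libraries.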
